A study of Mus musculus with 4 samples.

Results

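The miR-148 and miR-152 family was followed through 4 small RNA libraries of mouse CD4+ T cells. Its 5 members were taken by name from the 1091 known mature miRNAs listed: mmu-miR-148a-3p, mmu-miR-148a-5p, mmu-miR-148b-3p, mmu-miR-148b-5p and mmu-miR-152-3p. The prefix for mouse is left out from here on. The cells came from C57BL/6 mice that either lacked the gene Cblb (Cbl-b-/-) or were wild type (WT). Cbl-b is a ubiquitin ligase that restrains signalling by the T cell receptor (TCR). The 4 groups were Cbl-b-/- cells stimulated with anti-CD3 for 48 h, WT cells stimulated in the same manner, Cbl-b-/- unstimulated cells and WT unstimulated cells, which the labels call naive. All cells had been kept in RPMI-1640 medium with serum. The labels give no time in culture for the unstimulated cells. Any difference in culture time would go along with anti-CD3, and its part in the differences between states was not tested. Each group held 1 library, so no comparison has a replicate check, and the differences are between libraries. The sources used here do not say how the CD4+ T cells were isolated, how old the mice were, or whether animals were pooled. Cblb messenger RNA is outside what these libraries count, which leaves the genotypes as labelled.

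A miRNA is cut from a hairpin precursor, whose arms pair to form a short duplex. One strand, the guide, is loaded into an Argonaute protein and directs it to messenger RNAs that match the seed, bases 2 to 8 from the 5′ end. The other strand, the passenger, is mostly discarded, and in this family the 3p arm is the usual guide. miR-148a is known in T cells for repressing Bcl2l11, which encodes the death-promoting protein Bim, in repeatedly activated Th1 cells. In human CD4+ T cells of lupus patients, miR-148a is known for repressing the DNA methyltransferase DNMT1, and miR-152 is known to share that target.

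The mature sequences are shown because they define the family: 3 guide arms with 1 seed, and miR-148 passenger arms that share another. They come from RefSeq (GRCm38.p6), run 5′ to 3′, and have the seed in capitals. The first 3 are guide arms and the last 3 are passenger arms. miR-152-5p, listed by the authors but not a member, is shown as the partner of miR-152-3p.
miR-148a-3p: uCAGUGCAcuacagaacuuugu
miR-148b-3p: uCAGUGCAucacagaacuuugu
miR-152-3p: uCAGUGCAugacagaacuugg
miR-148a-5p: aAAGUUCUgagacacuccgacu
miR-148b-5p: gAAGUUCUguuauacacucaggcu
miR-152-5p: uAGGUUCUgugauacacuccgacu

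Of the 1091 listed miRNAs, 905 had a RefSeq sequence, and among these the seed of the guide arms occurred in 3, all of this family. The seed of miR-148a-5p and miR-148b-5p occurred in these 2, and that of miR-152-5p in 1. Counted from the 5′ end, miR-148b-3p differs from miR-148a-3p by C9U and U10C. miR-152-3p differs from miR-148b-3p by C10G and U20G over the 21 positions compared. Reads with sequencing errors or trimmed ends could therefore pass between the guide arms, and the counts of the rarest, miR-152-3p, are uncertain to that extent. Over the first 20 bases, no other listed miRNA with a sequence came closer than 8 mismatches to any of the 3 guide arms.

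The hairpins are shown with both mature arms in capitals, so that the 5p arm can be seen before the loop and the 3p arm after it.
Mir148a: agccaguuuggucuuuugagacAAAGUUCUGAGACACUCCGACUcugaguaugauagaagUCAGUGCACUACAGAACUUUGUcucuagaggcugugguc
Mir148b: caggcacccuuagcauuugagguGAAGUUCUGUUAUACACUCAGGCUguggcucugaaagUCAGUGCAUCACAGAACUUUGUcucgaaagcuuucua
Mir152: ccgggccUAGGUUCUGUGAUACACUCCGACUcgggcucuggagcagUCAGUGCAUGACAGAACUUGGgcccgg
Mir148a lies on the minus strand at chr6:51269812-51269910 (GRCm38), where no other gene is annotated. Mir148b lies on the plus strand at chr15:103285125-103285221, inside the gene Copz1. Mir152 lies on the plus strand at chr11:96850393-96850465, inside Copz2. Both are intronic: they overlap 4 Copz1 and 3 Copz2 transcripts on the same strand and 0 exons. Copz1 and Copz2 encode zeta subunits of the COPI coat of Golgi vesicles.

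Counted miRNA reads per library ranged from 11561693 to 15436447. Levels are given as reads per 1000000 of this sum (CPM). Intervals in the text are exact 95% Clopper-Pearson intervals unless stated otherwise, and they cover the counting error of reads only, not the spread between libraries. PCR copies are not independent molecules, so even the counting error may be larger. The 4 lymphocyte miRNAs checked, miR-142a-5p, miR-142a-3p, miR-150-5p and miR-181a-5p, together made up 162956, 182152, 365276 and 383815 CPM in the Cbl-b-/- stimulated, WT stimulated, Cbl-b-/- unstimulated and WT unstimulated libraries. miR-122-5p of liver and miR-375-3p of pancreatic islets, markers of tissues rich in miR-148a, summed to 0.519, 0.459, 1.28 and 1.17 CPM in the same libraries. The other markers looked up for these tissues, miR-216a-5p and miR-217-5p, were not among the listed miRNAs under these names. Both myeloid markers, miR-223-3p and miR-223-5p, were above 0 in every library and summed to 69.4, 83.4, 413 and 485 CPM. The 3 erythroid markers summed to 506, 208, 877 and 742 CPM, the 2 endothelial ones to 324, 334, 71.6 and 119 CPM, the 4 stromal ones to 49.9, 45.6, 171 and 166 CPM and the 5 epithelial ones to 445, 468, 590 and 646 CPM. Of all these markers that were listed only 1, a stromal one in the WT stimulated library, was at 0. In bulk samples, fewer cells of a type and less RNA per cell cannot be told apart.

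miR-148a-3p was the main member in every library. It stood at 6061 CPM in Cbl-b-/- stimulated cells, 7485 CPM in WT stimulated cells, 4441 CPM in Cbl-b-/- unstimulated cells and 4320 CPM in WT unstimulated cells. It ranked 28th, 25th, 29th and 30th among the listed miRNAs of these libraries. miR-148b-3p followed at 1761 CPM in Cbl-b-/- stimulated, 2207 CPM in WT stimulated, 1159.8 CPM in Cbl-b-/- unstimulated and 1289.9 CPM in WT unstimulated cells. On this scale both guide arms had their highest level in WT stimulated cells, and both stimulated libraries lay above both unstimulated ones. With TMM or DESeq2 factors miR-148a-3p was instead lower in stimulated than in unstimulated Cbl-b-/- cells, by the values given with the ratios. For miR-148b-3p the log2 ratio between these cells was then 0.00 and 0.07. Its log2 ratio of Cbl-b-/- over WT in unstimulated cells was -0.21 and -0.26. With these factors the Cbl-b-/- stimulated library thus lay below the WT unstimulated one for both guide arms.

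The passenger arms were far rarer and close to each other in level. miR-148a-5p stood at 157 CPM in Cbl-b-/- stimulated, 210.3 CPM in WT stimulated, 61.2 CPM in Cbl-b-/- unstimulated and 56.2 CPM in WT unstimulated cells. miR-148b-5p stood at 170.2 CPM in Cbl-b-/- stimulated, 242 CPM in WT stimulated, 65.8 CPM in Cbl-b-/- unstimulated and 67.2 CPM in WT unstimulated cells. Although miR-148a-3p was 3 to 4 times as abundant as miR-148b-3p, its passenger arm lay below that of miR-148b in all 4 libraries, and the intervals of the passenger arms overlapped in the unstimulated Cbl-b-/- library and the stimulated Cbl-b-/- library.

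miR-152-3p was the rarest member and ran the other way. It had 18 reads in Cbl-b-/- stimulated and 15 reads in WT stimulated cells, against 82 reads in Cbl-b-/- unstimulated and 101 reads in WT unstimulated cells. That is 1.56 CPM (interval 0.923 to 2.46), 1.15 CPM (0.642 to 1.89), 5.85 CPM (4.65 to 7.26) and 6.54 CPM (5.33 to 7.95) in the same order. The stimulated values lay below both unstimulated values with intervals that did not meet, and within each state the intervals of the genotypes overlapped.

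**Figure D1:**
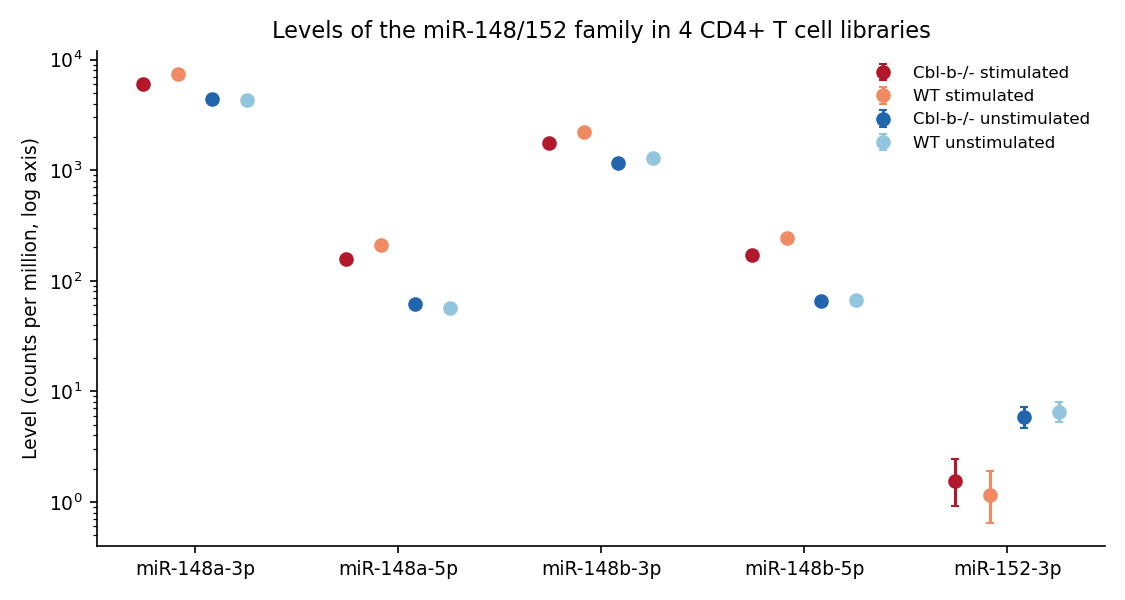
Levels of the 5 members in CPM on a log axis, 1 point per library with its 95% Clopper-Pearson interval. miR-148a-3p lies between 4320 and 7485 CPM and both miR-148 passenger arms between 56.2 and 242 CPM, higher in the stimulated libraries, while miR-152-3p lies between 1.15 and 6.54 CPM and is lower there.

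The guide arms together, which carry 1 seed, summed to 7824 CPM in Cbl-b-/- stimulated, 9692 CPM in WT stimulated, 5607 CPM in Cbl-b-/- unstimulated and 5616 CPM in WT unstimulated cells. miR-148a-3p made up 77.5%, 77.2%, 79.2% and 76.9% of these reads in the same libraries. miR-148b-3p made up 22.5%, 22.8%, 20.7% and 23.0%. miR-152-3p made up 0.0199% (interval 0.0118 to 0.0314) in Cbl-b-/- stimulated and 0.0118% (0.00663 to 0.0195) in WT stimulated cells, against 0.104% (0.0830 to 0.129) in Cbl-b-/- unstimulated and 0.116% (0.0949 to 0.142) in WT unstimulated cells. These shares do not depend on how libraries are scaled. The balance of the 2 major guide arms hardly moved: the ratio of miR-148a-3p to miR-148b-3p was 3.44 in Cbl-b-/- stimulated, 3.39 in WT stimulated, 3.83 in Cbl-b-/- unstimulated and 3.35 in WT unstimulated cells. The Cbl-b-/- unstimulated library had the highest ratio, and its log2 difference from WT unstimulated was 0.19 (normal-approximation counting interval 0.16 to 0.23).

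Stimulated cells were compared with unstimulated cells to see how the family goes with activation. The rule of size counted a miRNA as changed if it differed by 2-fold or more, averaged 50 CPM or more over the compared libraries, and had an interval that excluded a ratio of 1. Of the 5 members, 4 reached the level minimum, and 2 of these, the passenger arms miR-148a-5p and miR-148b-5p, rose in both genotypes. Over all miRNAs, 35% of 223 rose in Cbl-b-/- cells and 35.5% of 220 rose in WT cells, and 14.8% and 14.1% fell, so a change past this rule was common. miR-148a-5p had a log2 ratio of 1.36 (interval 1.24 to 1.478, 2.57-fold) in Cbl-b-/- cells and 1.90 (1.79 to 2.01, 3.74-fold) in WT cells. miR-148b-5p had a log2 ratio of 1.37 (1.26 to 1.485, 2.59-fold) in Cbl-b-/- cells and 1.85 (1.74 to 1.95, 3.60-fold) in WT cells.

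The guide arms of miR-148 did not pass the rule. miR-148a-3p had a log2 ratio of 0.45 (0.43 to 0.46, 1.36-fold) in Cbl-b-/- cells and 0.79 (0.78 to 0.81, 1.73-fold) in WT cells. miR-148b-3p had a log2 ratio of 0.60 (0.57 to 0.63, 1.52-fold) in Cbl-b-/- cells and 0.77 (0.75 to 0.80, 1.71-fold) in WT cells. The median log2 ratio over all miRNAs past the level minimum was 0.34 in Cbl-b-/- and 0.40 in WT cells, with robust SDs of 1.55 and 1.49, so both guide arms lay near the middle of all miRNAs. The lymphocyte, myeloid, erythroid, stromal and epithelial marker sums were lower in the stimulated libraries and the endothelial sum higher, and their part in the family's ratios was not tested.

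These values depended on the scaling. The trimmed mean (TMM) factors of edgeR moved every log2 ratio by -0.60 in Cbl-b-/- and by -0.61 in WT cells, and DESeq2 size factors by -0.54 and -0.65. miR-148a-3p then came to -0.15 and -0.09 in Cbl-b-/- cells with TMM and DESeq2 factors, below 0, and to 0.18 and 0.14 in WT cells. miR-148b-3p came to 0.00 and 0.07 in Cbl-b-/- and to 0.16 and 0.12 in WT cells. The passenger arms remained above 0 with both: miR-148a-5p at 0.76 and 0.82 in Cbl-b-/- and 1.29 and 1.25 in WT cells, miR-148b-5p at 0.77 and 0.83 in Cbl-b-/- and 1.23 and 1.20 in WT cells. In Cbl-b-/- cells neither passenger arm passed the rule with these factors. Among all miRNAs, 50 of 223 rose in these cells with TMM and 53 of 224 with DESeq2 factors.

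miR-152-3p had the lowest ratios of the family. Its log2 ratio was -1.91 (-2.73 to -1.16) in Cbl-b-/- cells and -2.51 (-3.40 to -1.72) in WT cells, so its level was 3.76-fold lower in the stimulated Cbl-b-/- library and 5.70-fold lower in the stimulated WT library. Its mean level was under the minimum of 50 CPM, so the rule did not count it. With no level minimum it passed as lower in both genotypes, as did 123 of 1053 miRNAs in Cbl-b-/- and 107 of 1061 in WT cells. Of the miRNAs past that minimum, 9 of 223 in Cbl-b-/- and 4 of 220 in WT cells had ratios as low. With TMM factors the ratios were -2.51 and -3.12.

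**Figure D2:**
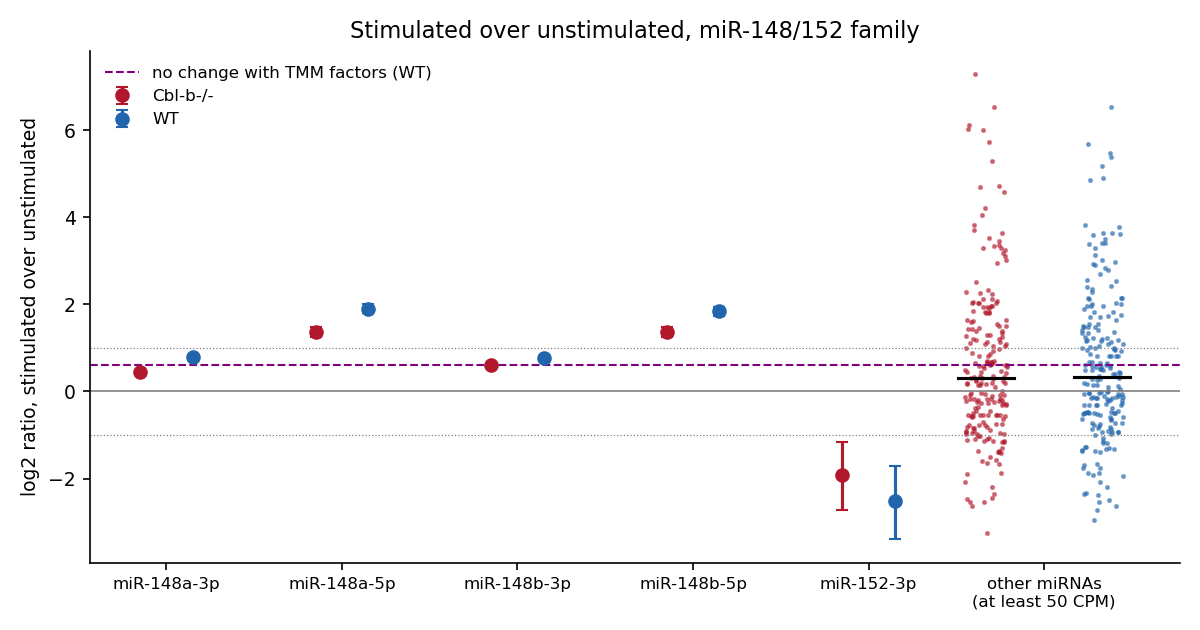
Log2 ratio of stimulated over unstimulated cells for the 5 members with 95% intervals, Cbl-b-/- in red and WT in blue, beside all other miRNAs averaging 50 CPM or more (black lines, their medians). Dotted lines mark 2-fold and the dashed line marks where 0 would lie for WT cells with TMM factors; the miR-148 passenger arms lie above it, the guide arms close to it and miR-152-3p far below it.

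A model with 1 term for genotype and 1 for state (edgeR's quasi-likelihood test, Benjamini-Hochberg adjustment over 334 miRNAs averaging 10 CPM or more) used the genotypes in place of replicates and left 1 residual degree of freedom. All 4 miR-148 arms passed an adjusted p of 0.05 for stimulation, as did 80.8% of all miRNAs tested. The shared log2 ratios were 0.62 for miR-148a-3p (adjusted p = 0.00776), 0.69 for miR-148b-3p (0.00234), 1.63 for miR-148a-5p (0.00171) and 1.61 for miR-148b-5p (0.00151). All 4 were above 0 in both genotypes. With TMM factors the passenger arms passed, at log2 ratios of 1.03 and 1.00 (adjusted p of 0.0101 for miR-148a-5p and 0.00832 for miR-148b-5p), and the guide arms did not (0.92 and 0.38). Passing was common with these factors too, at 78.1% of the 334 miRNAs. miR-152-3p was below the level of this fit; with no filter on low counts its log2 ratio was -2.20 (edgeR adjusted p = 0.000706), and 41.3% of 1091 miRNAs passed.

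The arms of a hairpin are made together, so the share of the 5p arm among the reads of both arms gives a view of the family that no scaling can move. For miR-148a it was 2.53% (interval 2.41 to 2.64) in Cbl-b-/- stimulated and 2.73% (2.63 to 2.84) in WT stimulated cells, against 1.36% (1.27 to 1.45) in Cbl-b-/- unstimulated and 1.28% (1.20 to 1.37) in WT unstimulated cells. For miR-148b it was 8.81% (8.44 to 9.19) in Cbl-b-/- stimulated and 9.87% (9.54 to 10.2) in WT stimulated cells, against 5.37% (5.04 to 5.72) in Cbl-b-/- unstimulated and 4.95% (4.66 to 5.25) in WT unstimulated cells. In both hairpins the stimulated libraries held a larger share of passenger reads than the unstimulated ones, with no overlap of intervals between states, and the guide arm remained the major one throughout.

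For miR-152 the major arm was not the same in both states. Its 5p arm held 75.3% of 73 reads (63.9 to 84.7) in Cbl-b-/- stimulated and 71.2% of 52 reads (56.9 to 82.9) in WT stimulated cells, against 36.9% of 130 reads (28.6 to 45.8) in Cbl-b-/- unstimulated and 34.8% of 155 reads (27.4 to 42.9) in WT unstimulated cells. The 3p arm accounted for most of the difference, since miR-152-5p itself had 55 and 37 reads in the stimulated and 48 and 54 reads in the unstimulated Cbl-b-/- and WT libraries.

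**Figure D3:**
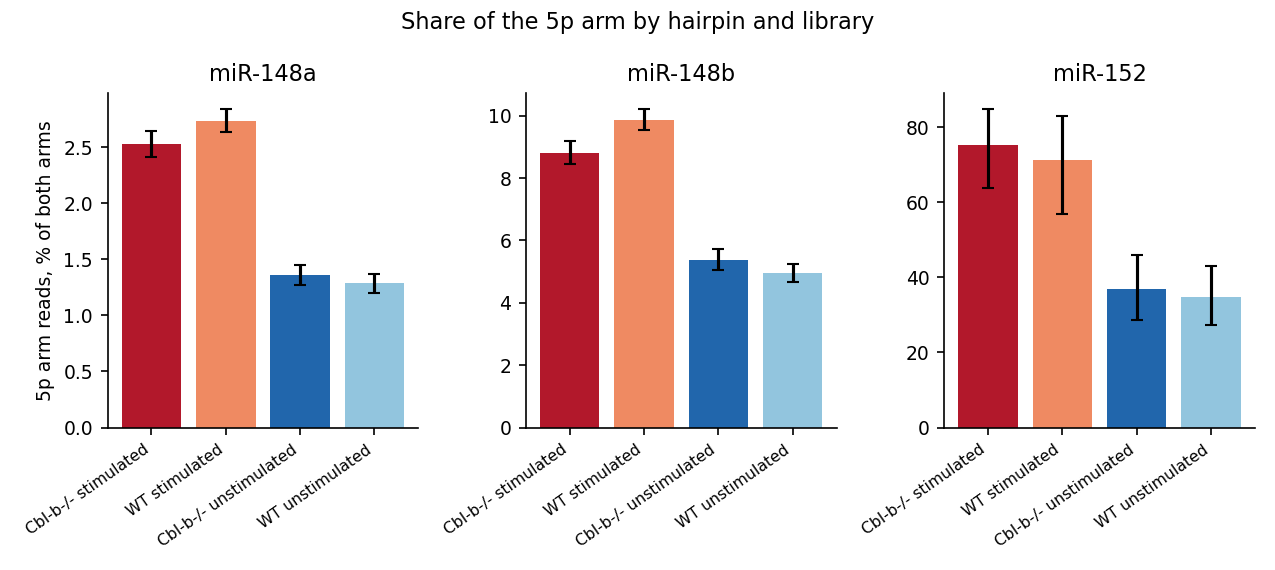
Reads of the 5p arm as a percentage of the reads of both arms, 1 bar per library with its 95% Clopper-Pearson interval; each panel has its own axis from 0. The 5p share is higher in the stimulated libraries of all 3 hairpins, at 2.53% and 2.73% for miR-148a, against 1.36% and 1.28% in the unstimulated ones.

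As a change of the log2 ratio of 3p over 5p, with normal-approximation counting intervals, stimulation went with -0.91 (-1.03 to -0.79) in Cbl-b-/- and -1.11 (-1.22 to -0.999) in WT cells for miR-148a. For miR-148b the change was -0.77 (-0.88 to -0.65) in Cbl-b-/- and -1.07 (-1.18 to -0.97) in WT cells. For miR-152 it was -2.35 (-3.27 to -1.44) in Cbl-b-/- and -2.17 (-3.15 to -1.19) in WT cells. A change of at least 1 towards the 5p arm with an interval below 0 was thus reached by 1 of the 3 hairpins in Cbl-b-/- and by all 3 in WT cells. It was reached by 22.5% of 142 arm pairs with a mean of at least 20 reads on each arm in Cbl-b-/- cells and by 28.5% of 144 in WT cells. A change as low as that of miR-148a was seen in 35 of 142 pairs in Cbl-b-/- and 41 of 144 in WT cells, and one as low as that of miR-152 in 5 of 142 and 13 of 144. For miR-148b it was 38 of 142 and 43 of 144. Shifts in arm balance of the size seen in miR-148a and miR-148b were therefore frequent among the arm pairs of these libraries. Those as low as that of miR-152 were less so.

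**Figure D4:**
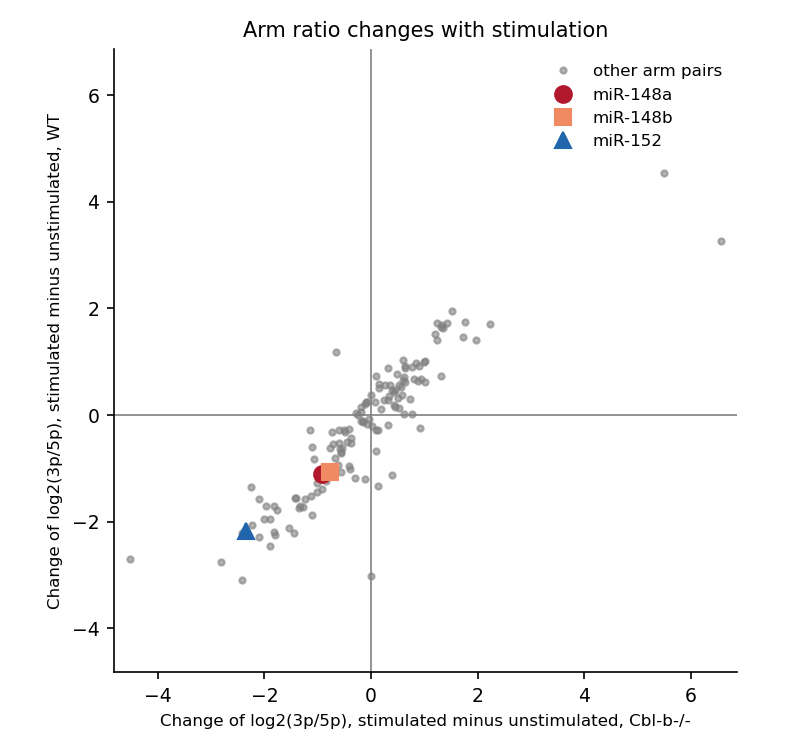
Change of the log2 ratio of 3p over 5p reads with stimulation in Cbl-b-/- cells (horizontal) and WT cells (vertical) for 136 arm pairs measured in both genotypes, 1 point per hairpin. miR-148a, at -0.91 and -1.11, and miR-148b, at -0.77 and -1.07, lie together in the lower left among many other hairpins, and miR-152, at -2.35 and -2.17, lies further out.

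The comparison of Cbl-b-/- with WT cells asked whether the loss of Cbl-b goes with a different level of the family. In stimulated cells all 4 miR-148 arms were lower in the Cbl-b-/- library, with intervals below 0, and by less than 2-fold. Among all miRNAs past the level minimum, 132 of 230 had a log2 ratio below 0. The log2 ratios were -0.30 (-0.32 to -0.29) for miR-148a-3p and -0.33 (-0.35 to -0.30) for miR-148b-3p. They were -0.42 (-0.51 to -0.34) for miR-148a-5p and -0.51 (-0.59 to -0.42) for miR-148b-5p, whose level was 1.42-fold lower. None of the 4 members past the level minimum passed the rule, which 5.22% of 230 miRNAs passed, all of them higher in Cbl-b-/-. The median of all miRNAs was -0.05 with a robust SD of 0.26. Ratios as low as that of miR-148a-3p were seen in 25 of the 230, and as low as that of miR-148b-5p in 5. miR-152-3p stood at 0.44 with an interval of -0.63 to 1.53, so no difference was detectable at its depth of 18 and 15 reads. The erythroid marker sum was higher in the Cbl-b-/- stimulated library, at 506 CPM, against 208 CPM in the WT one, and its part in these ratios was not tested.

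In unstimulated cells the genotypes were close. miR-148a-3p had a log2 ratio of 0.04 (0.02 to 0.06), which came to -0.014 with TMM and -0.067 with DESeq2 factors. miR-148b-3p had -0.15 (-0.18 to -0.12), miR-148a-5p 0.12 (-0.02 to 0.26), miR-148b-5p -0.03 (-0.16 to 0.10) and miR-152-3p -0.16 (-0.60 to 0.27). None of the 4 members past the level minimum passed the rule here either, against 1.52% of 197 miRNAs. The sum of the guide arms differed by a log2 ratio of -0.002 (-0.02 to 0.01), or 0.015 without the 10 most abundant miRNAs in the totals, while in stimulated cells it differed by -0.31 (-0.32 to -0.30).

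In the authors' deposited table of the stimulated pair all members carried the call of no change, as did 1013 of the 1091 miRNAs. miR-148b-5p had a p-value of 0.024 and a log2 fold change of 0.472 in the authors' deposited table, which gives WT over Cbl-b-/-. miR-148a-5p had 0.064 and 0.388 in the authors' deposited table. In that of the unstimulated pair 1039 of the 1091 carried that call, and no member had a p-value below 0.313 in the authors' deposited table.

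The arm shares differed little between the genotypes. In stimulated cells the log2 ratio of 3p over 5p was higher in the Cbl-b-/- library by 0.12 (0.03 to 0.20) for miR-148a and 0.18 (0.09 to 0.27) for miR-148b. In unstimulated cells the difference was -0.08 (-0.22 to 0.05) and -0.12 (-0.26 to 0.01). For miR-152 the difference was -0.31 (-1.45 to 0.83) in stimulated cells, where it had too few reads to be counted, and -0.13 (-0.83 to 0.57) in unstimulated cells. A change of at least 1 either way was reached by neither miR-148 hairpin in either state nor by miR-152 in unstimulated cells, and by 1.4% of 143 arm pairs in stimulated and 1.52% of 132 in unstimulated cells.

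**Figure D5:**
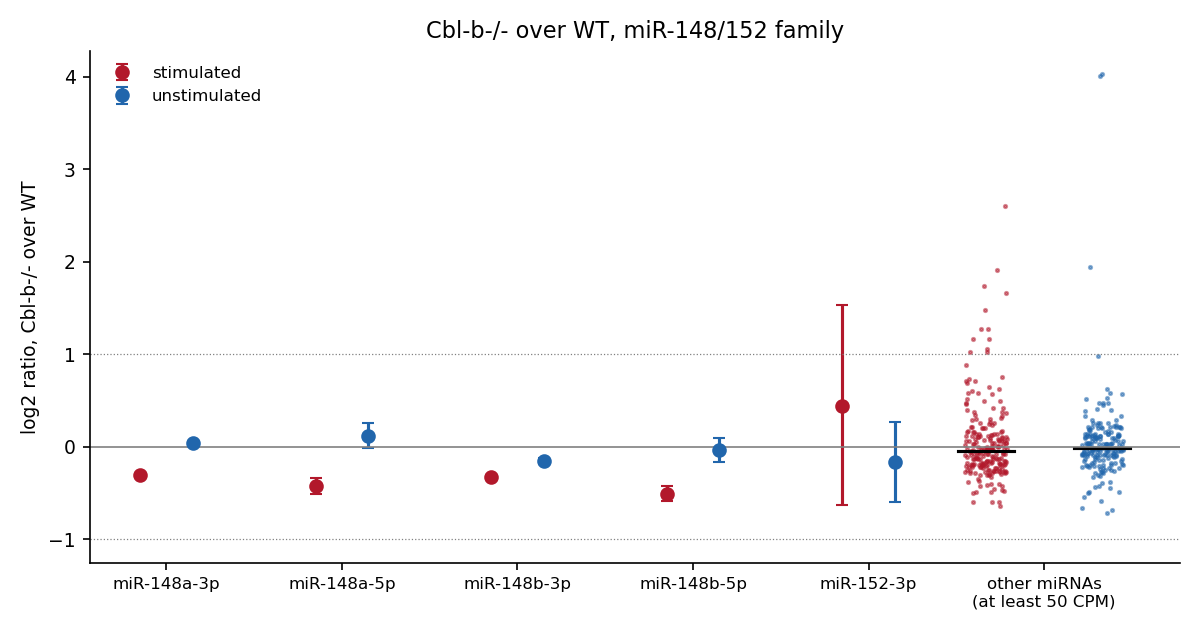
Log2 ratio of Cbl-b-/- over WT cells for the 5 members with 95% intervals, stimulated in red and unstimulated in blue, beside all other miRNAs averaging 50 CPM or more (black lines, their medians). All 4 miR-148 arms lie between -0.51 and -0.30 in stimulated cells and between -0.15 and 0.12 in unstimulated cells.

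The difference of the genotype ratios between the states was -0.34 (normal-approximation counting interval -0.37 to -0.32) for miR-148a-3p and -0.17 (-0.21 to -0.13) for miR-148b-3p. It was -0.54 (-0.70 to -0.38) for miR-148a-5p and -0.48 (-0.63 to -0.32) for miR-148b-5p, and 0.59 (-0.47 to 1.65) for miR-152-3p. Stimulation thus went with a smaller ratio in the Cbl-b-/- than in the WT pair for all 4 miR-148 arms. The same direction was seen in 131 of 223 miRNAs. With DESeq2 factors the difference came to -0.23 for miR-148a-3p and -0.06 for miR-148b-3p. None of these 4 arms reached a 2-fold difference, which 2.69% of 223 miRNAs did. Differences as low as that of miR-148a-5p were seen in 6 of the 223, and as low as that of miR-148b-5p in 11. For miR-148a-3p it was 23 and for miR-148b-3p 57. In the edgeR model of both terms 0 members passed for genotype, against 2.4% of 334 miRNAs, and 1 of the 4 tested, miR-148b-3p, had an unadjusted p under 0.05, as did 12.6% of all miRNAs (0.0464, log2 ratio -0.24, lower in both states, adjusted p = 0.351). DESeq2 called 0 members and 5.09% of the 334.

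The miRNAs whose levels over the 4 libraries were most like those of the guide arms were found by the distance between log2 levels centred on their own mean, among 219 other miRNAs averaging 50 CPM or more. For miR-148a-3p they were miR-423-3p (distance 0.13), miR-361-5p (0.16), miR-484 (0.16), miR-671-3p (0.17) and miR-872-5p (0.17). For miR-148b-3p they were miR-423-3p (0.12), miR-361-5p (0.14) and miR-671-3p (0.16). The distance between the 2 miR-148 guide arms was 0.15, so only miR-423-3p came closer to miR-148a-3p. For miR-152-3p the nearest were miR-203-3p (0.30), miR-181a-1-3p (0.37) and miR-211-5p (0.41), all lower in stimulated cells. With 4 libraries such likeness is a description.

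Other miRNAs are known to share targets with this family. Of 9 miRNAs known to repress Bcl2l11, the messenger of Bim, 4 rose with stimulation in Cbl-b-/- and 5 in WT cells, against the 35% and 35.5% of all miRNAs given above, with median log2 ratios of 0.88 and 1.18. With TMM or DESeq2 factors 3 rose in each genotype, miR-17-5p, miR-20a-5p and miR-19a-3p, and none of the 9 fell with either or with library sums. Among all miRNAs, TMM factors gave 50 of 223 higher and 69 lower in Cbl-b-/- and 49 of 220 and 69 in WT cells. DESeq2 factors gave 53 of 224 higher and 67 lower in Cbl-b-/- and 48 of 220 and 70 in WT cells. With library sums, the medians over all miRNAs averaging 10 CPM or more were 0.45 and 0.53. miR-17-5p stood at 3065 and 3487 CPM in Cbl-b-/- and WT stimulated cells, against 698 and 685 CPM in the unstimulated ones. miR-19b-3p, of the same cluster, had log2 ratios of 1.35 in Cbl-b-/- and 1.36 in WT cells, which TMM factors bring below 2-fold. miR-25-3p had 0.02 and 0.06 and so lay below 0 with TMM factors.

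Of 5 miRNAs known to lower DNA methyltransferases, directly or through other genes, 2 rose in Cbl-b-/- and 1 in WT cells, again beside 35% and 35.5% of all miRNAs, with medians of 1.14 and 0.54. With library sums none fell, but with TMM or DESeq2 factors 0 rose and 1 fell in Cbl-b-/- cells (miR-29c-3p), and 1 rose and 2 fell in WT cells (miR-29a-3p and miR-29c-3p). Falling was common with these factors. In Cbl-b-/- cells 69 of 223 miRNAs fell with TMM and 67 of 224 with DESeq2 factors, and in WT cells 69 and 70 of 220. miR-126a-3p, with log2 ratios of 1.76 in Cbl-b-/- and 1.22 in WT cells, averaged under 50 CPM and could not be counted. miR-21a-5p rose in both, with log2 ratios of 1.47 in Cbl-b-/- and 1.74 in WT cells; with TMM factors it stayed past 2-fold in WT cells alone. miR-29b-3p rose in Cbl-b-/- cells (1.14) and had a ratio of 0.54 in WT cells, and neither passed 2-fold with TMM factors. miR-29a-3p stood at 10505 and 7613 CPM in Cbl-b-/- and WT stimulated cells, against 10815 and 10643 CPM in the unstimulated ones. Of the miRNAs in either list past the level minimum, none passed the rule between genotypes in either state. Among all miRNAs it was passed by 5.22% of 230 in stimulated and 1.52% of 197 in unstimulated cells.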

How the data were processed

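Small RNA libraries were made from total RNA with an NEB small RNA kit, per the labels' protocols. Per the submitters' processing notes, cutadapt 1.7.1 and GRCm38.p5 were used in a role not described; aligner, counter and miRNA release are not given in the sources. The authors deposited 2 tables, 1 per state, holding raw counts. Per the file headers they also hold a normalized read count (a score, found here to equal the raw count over 1 constant per library), a p-value, a ratio (WT over Cbl-b-/-) and its log2, by a test that is not given. These served for comparison only.

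Counts were scaled by library sums. Reads of 25 listed miRNAs, none of this family, had identical counts in all libraries, so multiply matching reads may be counted more than once. Log2 ratios carry exact intervals. edgeR has no residual degrees of freedom for 1 library against 1, so a rule of size was used (2-fold, 50 CPM, interval), beside an additive fit of genotype and state with edgeR 4.0.16 (R 4.3.3) and, as an alternative, DESeq2 1.42.0. Arm ratios and differences between states used counts plus 0.5. A count of 0 was taken at 3 counts. Intervals, arm changes and fit were tested on simulated data. The intervals and arm changes were simulated with counting error only. For the fit, the most abundant miRNAs were left unchanged, so shifts in library composition were not covered. Scipy 1.17.1 and matplotlib 3.10.9 were used.

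Members and lists were chosen with earlier results of these data known. Named were the members, the nearest 5 or 3 miRNAs to each guide arm and examples from 2 target lists. Alternatives were TMM and DESeq2 factors, totals without the 10 most abundant miRNAs, the authors' totals, level minimums (none, 10 and 200 CPM), fold limits and arm read minimums. The comparison by major and minor arm and the scalings of the target lists were added after seeing the data.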

Additional observations from a re-analysis of the deposited data

Results flagged for a closer look

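Some ratios had opposite directions in the libraries compared. The differences were not tested, as every group holds 1 library. The ratio of Cbl-b-/- over WT lay below 1 in stimulated and above 1 in unstimulated cells for miR-148a-3p (log2 -0.30 and 0.04, difference -0.34) and miR-148a-5p (-0.42 and 0.12, difference -0.54). For miR-148a-3p the unstimulated value lies below 0 with TMM or DESeq2 factors, and for miR-148a-5p its interval includes 0 with library sums. It lay above 1 in stimulated and below 1 in unstimulated cells for miR-152-3p (0.44 and -0.16, difference 0.60) and miR-152-5p (0.75 and -0.03, difference 0.78). Both intervals of miR-152-3p include 0, as does the unstimulated one of miR-152-5p. The ratio of stimulated over unstimulated cells for miR-152-5p lay above 1 in Cbl-b-/- and below 1 in WT cells (0.47 and -0.31, difference 0.78). Both of these intervals include 0, and with TMM or DESeq2 factors the Cbl-b-/- value lies below 0 too, at -0.13 or -0.063. These miR-152 values rest on 15 to 101 reads per library.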

How the results depend on the processing

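Scaling mattered most for stimulation in Cbl-b-/- cells, where the count of members past the rule came to 0 in place of 2 under TMM as well as DESeq2 size factors. In those cells the sum of the guide arms turned to -0.12 with TMM and -0.057 with DESeq2 factors, miR-148a-3p to -0.15 and -0.089, and miR-152-5p to -0.13 and -0.063. These factors shift all miRNAs of a library alike. A level minimum of 200 CPM or a fold limit of 4 gave 0 members in both genotypes. At 200 CPM 37 of 124 miRNAs rose in Cbl-b-/- and 37 of 125 in WT cells, and at 4-fold 39 of 223 and 39 of 220. A fold limit of 1.5 gave 3 members as higher in Cbl-b-/- and 4 in WT cells, beside 99 of 223 and 98 of 220 miRNAs. These member counts follow from the limits themselves. No level minimum gave 3 in both genotypes, adding miR-152-3p as lower. In the additive fit for stimulation, TMM factors, DESeq2 size factors and DESeq2 itself each gave 2 members in place of 4. Of the 334 miRNAs tested, 78.1%, 76.0% and 73.7% passed in the same order, against 80.8% with library sums. Between unstimulated genotypes, miR-148a-3p turned to -0.014 with TMM and -0.067 with DESeq2 factors, and the sum of the guide arms to 0.015 without the 10 most abundant miRNAs. Over all miRNAs, TMM factors turned 78 higher and 33 lower with stimulation into 50 and 69 in Cbl-b-/- and 78 and 31 into 49 and 69 in WT cells. A minimum of 100 reads per arm only chooses which pairs are counted and cannot move an arm value. It kept miR-148a and miR-148b and left miR-152 out. With stimulation, 19 of 97 such pairs in Cbl-b-/- and 26 of 99 in WT cells shifted at least 2-fold towards the 5p arm. No paired analysis was possible because each group holds 1 library and the groups share no series of replicate numbers; the model with genotype and state as terms takes the genotypes in place of such pairs. No library could be left out without losing a group or the last residual degree of freedom. Depth limits miR-152 most, with 52 to 155 reads for both arms. The passenger arms of miR-148 had 858 to 1037 reads in unstimulated cells, where their genotype intervals include 0 with library sums. With DESeq2 factors the interval of miR-148b-5p lies below 0 (-0.27 to -0.007). Without the 10 most abundant miRNAs in the totals, the interval of miR-148a-5p lies above 0 (0.002 to 0.278).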

Other observations

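Across all arm pairs, more of the shifts that went with stimulation were towards the arm with fewer reads over the 4 libraries, a split chosen after seeing the data. Of 142 pairs in Cbl-b-/- cells, 40 shifted by at least 2-fold towards the rarer arm and 9 towards the other, and of 144 pairs in WT cells, 44 and 12. Among pairs whose rarer arm held under 20% of reads, as in miR-148a and miR-148b, the median change towards the rarer arm was 0.62 over 94 pairs in Cbl-b-/- and 0.73 over 97 pairs in WT cells. miR-148a was at 0.91 and 1.11 and miR-148b at 0.77 and 1.07. Between genotypes the median was -0.04 in stimulated and 0.07 in unstimulated cells.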
